A study of Mus musculus with 2 samples.

Results

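The genes described are the 8 core genes of mouse DNA methylation: the methyltransferases Dnmt1, Dnmt3a and Dnmt3b, their inactive relative Dnmt3l, the dioxygenases Tet1, Tet2 and Tet3, and Uhrf1, a reader of methylated DNA. They were chosen by name, and all 8 were found among the 43346 mouse genes of the deposited gene tables, with 59 annotated transcripts in the transcript tables. Embryonic facial prominence, from which the face and jaws form, was dissected at embryonic day 15.5 from male and female embryos of the mouse strain B6NCrl. The labels describe the embryos as healthy and name no mutation, transgene or treatment. All samples belong to 1 group, with 2 biological replicates, so the tables hold levels and the spread between replicates and no comparison between conditions. RNA of 78 embryos was pooled for replicate 1 and of 62 for replicate 2, both under the same donor label, and each library began from 10 ng of total RNA over 200 nucleotides long. Each value is therefore an average over many animals and over every cell type of the dissected face. No p-values were computed, and the SD over 2 pools describes these pools alone.

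DNA methylation adds a methyl group to cytosine, in mammals mostly where a C is followed by a G (CpG). Dnmt3a and Dnmt3b set new methylation, and Dnmt3l, best known from germ cells, has no catalytic activity and helps them. After replication Uhrf1 binds DNA that is methylated on the old strand only and brings in Dnmt1, which copies the mark to the new strand. Tet1, Tet2 and Tet3 oxidise the methyl group, the first step of its removal.

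Mouse genes received 36048494 of 37128010 expected counts in replicate 1 and 36774513 of 38543623 in replicate 2. Levels are given in TPM, which corrects for transcript length and library size. At this depth 1 read on 1 kb of transcript was worth 0.0406 TPM in the first library and 0.0389 TPM in the second. Markers of the labelled tissue were present. All 10 facial mesenchyme genes and all 8 epithelial genes reached 1 TPM in both replicates, led by Msx1 at 152 ± 9.16 TPM and Krt14 at 946 ± 83.6 TPM (mean ± SD, n = 2). Cartilage and bone, skeletal muscle, endothelial, macrophage and neural markers were also detected, every listed gene of each at 1 TPM or more, and 4 of 5 erythroid genes. In such a mixture fewer cells of a type and less RNA per cell cannot be told apart.

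Of the 8 genes, 7 reached 1 TPM in both replicates, where 65.4% of the 21474 protein coding genes did. Dnmt3a and Uhrf1 stood highest, Dnmt1 and Tet3 followed at similar levels, and Tet1, Dnmt3b and Tet2 were lower. Dnmt3l was near the floor, with 4 expected counts in replicate 1 and 9 in replicate 2. Together the 8 genes made up 326 TPM in replicate 1 and 302 TPM in replicate 2. The median coding gene had 6.14 TPM, and the median of those detected had 18.1 TPM, so 4 of the 8 lay above the level of the median detected gene and 6 above that of the median of all coding genes.

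**Figure D1:**
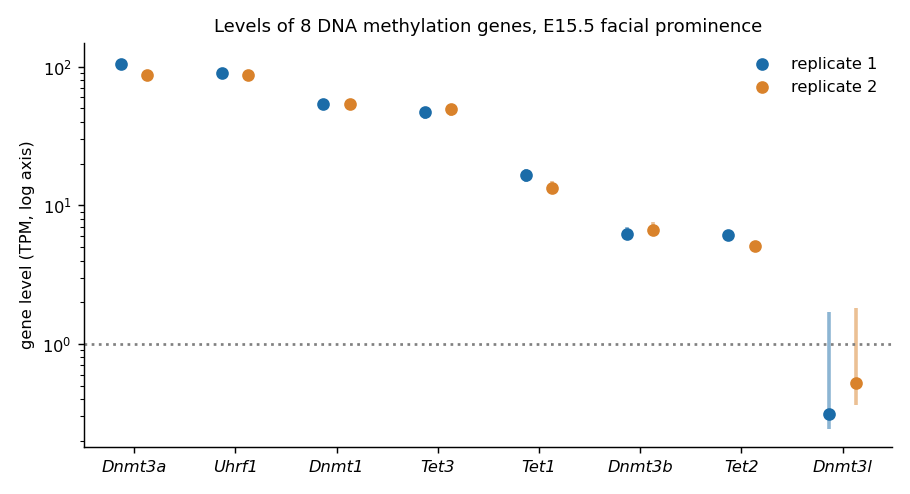
Level of each gene in TPM on a log axis, by replicate. Points are the deposited values, vertical lines the authors' credibility bounds (hidden behind the point where narrow), and the dotted line marks 1 TPM. Dnmt3a and Uhrf1 lie highest, between 86.5 and 105 TPM, and Dnmt3l is the only gene under the line.

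Dnmt1 (ENSMUSG00000004099, chr9:20907209-20959888, minus strand, GRCm38), the maintenance methyltransferase, had 53.9 TPM in replicate 1 and 53.4 TPM in replicate 2, from 6964 and 7197 expected counts. The replicates were nearly equal, and 86.2% of coding genes had a lower mean. All 3 of its transcripts carry a complete coding sequence. They differ in where they begin and share the exons after the first, but for 3 bases of 1 exon that only Dnmt1-201 holds. Dnmt1-201, which encodes 1620 codons, took 69.8% of the gene's TPM in replicate 1 and 70.8% in replicate 2. Its first exon has 272 bases, of which 80 are coding. Dnmt1-202 begins 6909 bases further upstream with a noncoding first exon of 156 bases and encodes 1501 codons, a protein shorter at its amino terminus. It took 28.6% and 28.1%, or 15.4 and 15.0 TPM, in replicates 1 and 2. Both libraries thus placed about 28.3% of Dnmt1 on Dnmt1-202, with a spread between replicates of 0.297 percentage points (SD, n = 2). That SD does not cover the error of splitting shared reads. The authors' credibility bounds for Dnmt1-202 were 12.85 to 17.45 TPM in replicate 1 and 11.71 to 17.39 TPM in replicate 2. Dnmt1-203, which begins just downstream of the Dnmt1-201 first exon, took 1.63% and 1.08%. In mouse oocytes Dnmt1 is known to begin at an upstream first exon that gives an amino-terminally shorter protein. The tables give estimated reads for whole transcripts, 1953 and 1989 for Dnmt1-202, and not the reads on its first exon alone. Dnmt1-202 also lacks the 3 bases that only Dnmt1-201 holds, so its share does not measure the use of the upstream start by itself.

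The 250 bases before each of the main Dnmt1 starts are shown because the starts differ in their number of CpGs. They are RefSeq promoter windows of GRCm38.p6, read 5′ to 3′ on the strand of the gene, with every CG in capitals. The motif reads the same on both strands. The window before Dnmt1-202 holds 2 CG, and 81.2% of the 32851 RefSeq windows of that length hold as many or more. The window before Dnmt1-201 holds 7, which 46.3% of windows reach, and the median window holds 6.
Dnmt1-202 upstream window, chr9:20959889-20960138, minus strand: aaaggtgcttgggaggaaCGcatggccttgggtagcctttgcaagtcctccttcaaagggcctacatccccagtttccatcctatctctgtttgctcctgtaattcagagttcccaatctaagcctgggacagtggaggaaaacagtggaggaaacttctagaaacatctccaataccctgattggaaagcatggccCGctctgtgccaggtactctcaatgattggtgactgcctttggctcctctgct
Dnmt1-201 upstream window, chr9:20952980-20953229, minus strand: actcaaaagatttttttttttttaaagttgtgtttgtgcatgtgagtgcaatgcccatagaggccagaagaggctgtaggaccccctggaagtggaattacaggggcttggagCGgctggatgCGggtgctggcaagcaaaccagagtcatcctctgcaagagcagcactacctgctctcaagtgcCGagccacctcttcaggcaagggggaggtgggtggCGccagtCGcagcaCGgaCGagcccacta
The window before the rarely used Dnmt1-203, which overlaps the first exon of Dnmt1-201 and is not printed, holds 26 CG, a count that 9.59% of windows reach.

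Uhrf1 (ENSMUSG00000001228, chr17:56303321-56323486, plus strand), which recruits Dnmt1 to replicated DNA, had 90.6 TPM in replicate 1 and 86.5 TPM in replicate 2, from 7167 and 7125 expected counts. It lay above 91.9% of coding genes. In TPM, Uhrf1 exceeded Dnmt1 by 1.68-fold in replicate 1 and 1.62-fold in replicate 2, a mean of 1.65 ± 0.0440 (SD, n = 2). Without the correction for length the estimated counts of the genes were near equal, with a mean ratio of 1.01, since the Dnmt1 transcripts are longer. Uhrf1 also has alternative starts, 1027 bases apart. Transcripts from the downstream start, Uhrf1-204 and Uhrf1-202, took 61.9% and 64.2% in replicates 1 and 2, and those from the upstream start, Uhrf1-201 and Uhrf1-203, took 33.3% and 30.9%. A second difference lies inside the coding sequence, where 24 bases are kept or skipped and the protein has 782 or 774 codons. Transcripts with the 24 bases took 78.4% in replicate 1 and 73.0% in replicate 2, and those without them 16.8% and 22.1%. The longer form led in both libraries. The single transcript with the highest share was Uhrf1-204, at 58.9% and 61.5%. These 24 bases are shown in capitals between 10 flanking bases on each side, as spliced in GENCODE M21.
Uhrf1 optional 24 bases, chr17:56313041-56313064, plus strand: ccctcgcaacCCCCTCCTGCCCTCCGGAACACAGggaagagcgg

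Dnmt3a (ENSMUSG00000020661, chr12:3806007-3914443, plus strand), a de novo methyltransferase, was the highest of the 8 genes, with 105 TPM in replicate 1 and 87.3 TPM in replicate 2, from 10770 and 9806 expected counts. Replicate 1 was the higher, and the mean of 96.2 ± 12.6 TPM (SD, n = 2) lay above 92.7% of coding genes. Dnmt3a was above Uhrf1 within each library, but its range over the replicates overlapped that of Uhrf1. The authors' credibility bounds of the 2 genes were apart in replicate 1 and overlapped in replicate 2. The order of these 2 genes is therefore not settled by the data. Of 18 transcripts, 4 carry a complete coding sequence, and these took 58.5% of the gene's TPM in replicate 1 and 66.0% in replicate 2. The rest went to short fragments, retained introns and transcripts without a full reading frame. The longest protein, of 908 codons, comes from the upstream start (Dnmt3a-201), and a form of 689 codons without the amino-terminal part comes from a start 84714 bases downstream (Dnmt3a-203 and Dnmt3a-205). The shorter form, known as Dnmt3a2, is best known from embryonic stem cells and germ cells.

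Reads were assigned to complete transcripts of both starts. These estimates are for whole transcripts, which also differ outside their starts, and not for reads at the starts themselves. Dnmt3a-201 stood at 26.2 TPM in replicate 1 and 23.1 TPM in replicate 2, a share of 24.9% and 26.4%. The downstream pair stood at 35.3 and 34.5 TPM, a share of 33.6% and 39.6%. Among complete transcripts the shorter form therefore had the larger TPM in both libraries, but this holds for the sum of Dnmt3a-203 (16.2% and 18.9%) and Dnmt3a-205 (17.4% and 20.7%), each of which lay below Dnmt3a-201. The order needs both transcripts, and for Dnmt3a-205, at 18.3 and 18.1 TPM, the authors' credibility bounds were 10.8 to 23.4 TPM in replicate 1 and 11.1 to 18.9 TPM in replicate 2. By expected counts the order turned round, with 57.4% and 57.9% on the upstream start against 30.0% and 33.6% on the downstream start. The annotated transcripts differ in length, 9685 bases for Dnmt3a-201 against 5424 for Dnmt3a-203 and 2328 for Dnmt3a-205, and the TPM depends on that annotation. Transcripts without a complete coding sequence that begin near the upstream start took 28.9% and 30.6%, mainly Dnmt3a-206 (17.5% and 16.9%) and Dnmt3a-202 (6.41% and 10.5%). With these included, transcripts from the upstream start region took 53.9% and 57.0% of the TPM in replicates 1 and 2, above the downstream pair. The replicates disagreed most on Dnmt3a-215, annotated for nonsense-mediated decay, at 7.96% in replicate 1 and listed at 0 in replicate 2.

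The windows before the starts of the 2 main Dnmt3a proteins are shown as above, with every CG in capitals. The upstream window, which ends 50 bases before Dnmt3a-201 begins, holds 38 CG, and 1.88% of RefSeq windows hold as many or more. The downstream one holds 15, a count that 27.3% of windows reach, and its last 16 bases fall in the first exon of Dnmt3a-205.
Dnmt3a-201 upstream window, chr12:3806730-3806979, plus strand: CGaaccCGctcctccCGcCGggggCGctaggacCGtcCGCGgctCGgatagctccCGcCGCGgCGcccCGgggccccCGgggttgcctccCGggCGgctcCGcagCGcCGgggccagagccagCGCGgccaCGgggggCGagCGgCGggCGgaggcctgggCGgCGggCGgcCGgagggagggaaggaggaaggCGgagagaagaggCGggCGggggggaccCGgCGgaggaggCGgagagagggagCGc
Dnmt3a-203 upstream window, chr12:3891494-3891743, plus strand: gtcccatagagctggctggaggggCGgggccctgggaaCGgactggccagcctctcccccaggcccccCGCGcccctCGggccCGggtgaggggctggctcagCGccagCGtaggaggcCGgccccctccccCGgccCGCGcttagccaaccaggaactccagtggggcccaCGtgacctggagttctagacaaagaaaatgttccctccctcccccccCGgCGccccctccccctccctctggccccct
The upstream start is thus far denser in CpG than the downstream one, and both exceed the median window.

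Dnmt3b (ENSMUSG00000027478, chr2:153649450-153687730, plus strand), the other de novo methyltransferase, was low, with 6.21 TPM in replicate 1 and 6.63 TPM in replicate 2, from 541 and 575 expected counts. Its mean lay above 50.6% of coding genes, near the middle of all of them. Dnmt3a exceeded Dnmt3b by 16.9-fold and 13.2-fold in TPM, a mean of 15.0 ± 2.66 (SD, n = 2). Counting complete coding transcripts alone, the ratio was 10.7 ± 0.203.

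By deposited TPM most Dnmt3b came from transcripts without part of the methyltransferase domain. A pair of coding exons of 70 and 119 bases, together 63 codons, is absent from Dnmt3b-206 and 3 other annotated transcripts. Those 4 took 72.8% of the gene's TPM in replicate 1 and 55.3% in replicate 2, nearly all of it on Dnmt3b-206 (70.7% and 55.3%), which encodes 776 codons. Transcripts with both exons took 18.3% and 27.1%. The replicates agreed on the order and differed in the size, with an SD of 12.4 percentage points around a mean of 64.0% for the shorter forms. The authors' posterior shares gave the same order, 64.0% and 48.0% without the exons against 24.3% and 32.8% with them. In replicate 2 the shorter forms were thus no majority by that estimate. For Dnmt3b-206 alone the posterior shares were 52.8% and 36.5%. Its deposited 4.39 and 3.66 TPM lay above the authors' credibility bounds, 2.44 to 4.24 TPM in replicate 1 and 1.37 to 3.48 TPM in replicate 2. A further coding exon of 60 bases, or 20 codons, was present in transcripts taking 18.3% and 25.2% and absent from complete ones taking 72.8% and 57.2%. Mouse Dnmt3b proteins that lack part of the catalytic domain, as Dnmt3b3 does, are known to have no methyltransferase activity of their own. Among transcripts with both exons, the estimate moved between near copies, since Dnmt3b-207 took 14.8% in replicate 1 and was listed at 0 in replicate 2, while Dnmt3b-201 took 3.52% and 25.2%. Retained introns took the remaining 8.93% and 17.6%, on 8.23 and 17.7 expected counts. With 541 and 575 expected counts over the whole gene, these shares rest on the fewest reads of the 7 detected genes.

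The optional exons that separate these forms are given below in capitals, between 10 flanking bases on each side as spliced in GENCODE M21 transcripts. All 3 are coding and lie on the plus strand.
Dnmt3b 60-base exon, chr2:153670849-153670908, plus strand: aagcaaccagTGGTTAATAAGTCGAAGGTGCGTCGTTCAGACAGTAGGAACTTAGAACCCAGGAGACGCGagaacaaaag
Dnmt3b catalytic pair, first exon, chr2:153683608-153683677, plus strand: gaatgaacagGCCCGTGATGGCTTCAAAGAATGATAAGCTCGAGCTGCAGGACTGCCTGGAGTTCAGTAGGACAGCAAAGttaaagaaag
Dnmt3b catalytic pair, second exon, chr2:153684359-153684477, plus strand: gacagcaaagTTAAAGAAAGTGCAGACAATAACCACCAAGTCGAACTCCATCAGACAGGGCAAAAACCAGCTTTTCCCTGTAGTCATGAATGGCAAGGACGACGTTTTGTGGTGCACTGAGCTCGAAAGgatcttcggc
The catalytic pair measures 189 bases, a whole number of codons, so skipping both of them shortens the protein and keeps the reading frame after them.

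**Figure D2:**
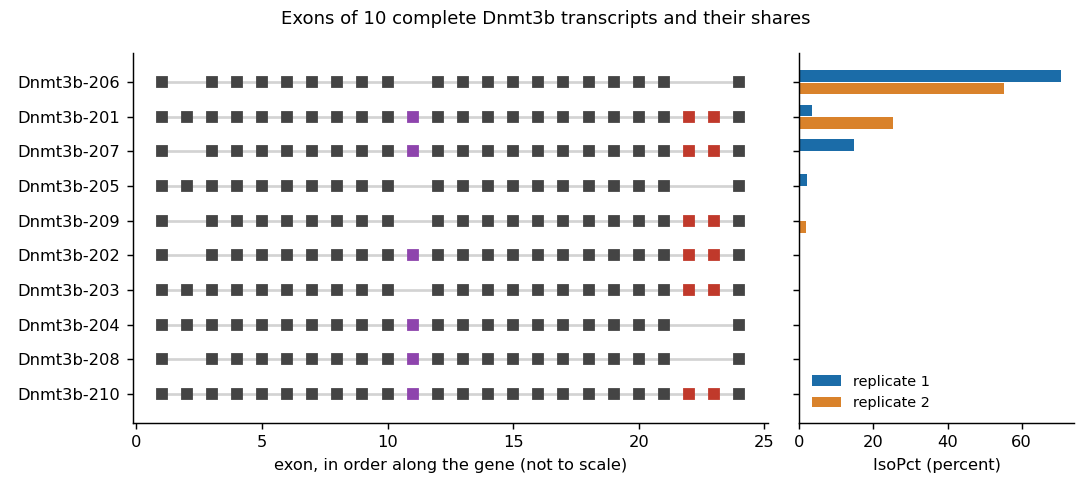
Left, the 10 complete Dnmt3b transcripts with their exons in order along the gene (squares, not to scale), the 60-base exon in purple and the catalytic pair in red. Right, the share of each transcript in the gene's TPM by replicate. Dnmt3b-206, without any of the 3 coloured exons, leads in both replicates at 70.7% and 55.3%.

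Dnmt3l (ENSMUSG00000000730, chr10:78041947-78063622, plus strand), the inactive cofactor, was at 0.31 TPM in replicate 1 and 0.52 TPM in replicate 2, from 4 and 9 expected counts. The authors' posterior mean was higher, 0.88 and 1.01 TPM in replicates 1 and 2. Its 3 transcripts with the full coding sequence of 421 codons, Dnmt3l-201, Dnmt3l-205 and Dnmt3l-208, were assigned 0 expected counts in both libraries. For Dnmt3l-201, 3 counts would equal 0.0772 TPM in replicate 1 and 0.0740 TPM in replicate 2, a limit from counting error only. The authors' upper credibility bounds for it, which also cover the assignment of shared reads, were higher, 0.111 and 0.145 TPM. The few reads were given to Dnmt3l-203, with a reading frame of 126 codons (2.35 and 7 counts), and to the retained intron Dnmt3l-207 (1.65 and 2 counts). Aire, which overlaps the gene on the opposite strand, was also low, at 0.24 TPM in both replicates. No expected count was thus assigned to full-length Dnmt3l, and a low level within the bounds remains possible.

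Among the dioxygenases Tet3 was the highest by gene TPM. Tet3 (ENSMUSG00000034832, chr6:83362373-83459084, minus strand) had 47.5 TPM in replicate 1 and 49.6 TPM in replicate 2, from 5000 and 5053 expected counts, and lay above 84.8% of coding genes. Tet1 (ENSMUSG00000047146, chr10:62804570-62908996, minus strand) had 16.5 TPM and 13.4 TPM in replicates 1 and 2, from 1686 and 1664 expected counts. Tet2 (ENSMUSG00000040943, chr3:133463679-133545139, minus strand) had 6.15 TPM and 5.06 TPM in replicates 1 and 2, from 1377 and 1181 expected counts. Of their summed TPM, Tet3 took 70.3% ± 3.68, Tet1 21.6% ± 2.74 and Tet2 8.10% ± 0.939 (SD, n = 2). The ranges of the 3 genes over the replicates did not overlap.

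Much of this TPM lay on transcripts that encode no full enzyme. For Tet3, the noncoding Tet3-201 of 4 exons took 42.4% in replicate 1 and 50.7% in replicate 2. The complete forms are Tet3-202, of 1668 codons, at 21.5% and 16.7%, and Tet3-203, of 1803 codons, at 14.3% and 14.8%. By expected counts Tet3-202 led, with 2724 and 2301 (54.5% and 45.5%), against 1202 and 1567 on Tet3-201, and the complete forms together held 74.1% and 67.3% of the reads. Tet3-203 begins 14717 bases upstream of Tet3-202 and its second exon adds 101 coding codons. Longer Tet3 forms are known to carry an amino-terminal CXXC domain, a zinc finger that binds CpG, which shorter forms lack. Another transcript, Tet3-204, begins 17409 bases upstream of Tet3-202 and is annotated as 469 bases with an unfinished coding sequence. It took 21.8% and 17.8% of the TPM on 94.5 and 84.1 expected counts, 1.89% and 1.67% of the gene's reads, so its share rests on a short annotated length. A Tet3 form with a first exon of its own is known from mouse oocytes. The 11 codons of the first Tet3-204 exon are shown in capitals because they set this transcript apart from the others, followed by 10 bases of the next exon.
Tet3-204 first coding exon, chr6:83459007-83459039, minus strand: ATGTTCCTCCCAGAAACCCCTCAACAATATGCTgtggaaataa

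For Tet1, Tet1-202 took 48.1% of the TPM in replicate 1 and 50.4% in replicate 2. It is a noncoding transcript of 3 exons that begins 33814 bases downstream of Tet1-206, beyond the exon that holds the annotated start codon and 1863 coding bases. Only its first exon, of 169 bases, is not shared with Tet1-206. The complete Tet1-206, of 2039 codons, took 22.3% and 27.5%, or 3.68 TPM in each replicate. By expected counts the order was the other way, with 76.8% and 81.0% of the reads on Tet1-206 against 16.3% and 14.6% on Tet1-202. Fragments Tet1-205 and Tet1-203 took 23.3% and 6.28% in replicate 1, and 16.8% and 5.28% in replicate 2. A shorter Tet1 protein from a start downstream of the first coding exon is known from mouse somatic cells. Tet2 has a single transcript in the annotation used for counting, Tet2-201, of 1912 codons, so its share was fixed at 100% in advance. In M21 the gene reaches base 133545139, further upstream than Tet2-201, which begins at base 133544390. The use of other Tet2 starts or forms was therefore not measured. In M21 the Tet1 gene likewise reaches base 62908996, upstream of every counted Tet1 transcript. The furthest of these, Tet1-206, begins at base 62899118, so Tet1 starts beyond it were not measured either. The RefSeq window before Tet2-201 holds 51 CG, the highest count among the 15 windows of the 8 genes. Only 0.0670% of all windows hold as many or more.

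**Figure D3:**
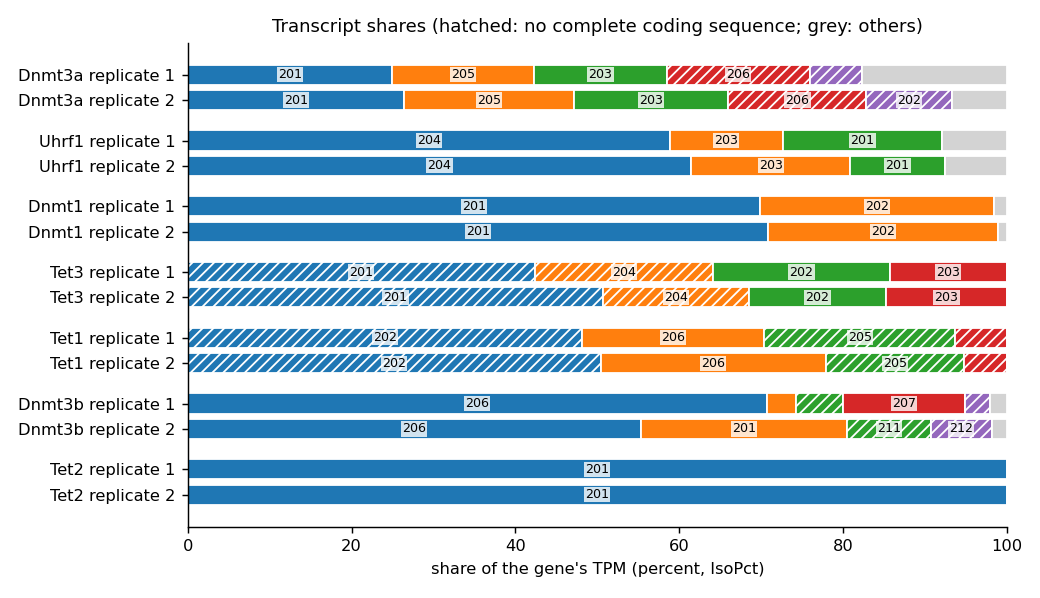
Share of each transcript in its gene's TPM, in percent, by gene and replicate. Numbers in the bars are the last part of the transcript name, hatching marks transcripts without a complete coding sequence, and grey gathers those with a mean share under 5%. Hatched transcripts take the largest part of Tet3 and Tet1 and none of Dnmt1. Tet2 has a single transcript in the annotation used for counting.

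The order of the genes changed when only transcripts with an annotated start and stop codon were counted, a comparison chosen after seeing the data. Uhrf1 then led at 84.2 ± 2.75 TPM, before Dnmt3a at 59.5 ± 2.72 TPM and Dnmt1 at 53.7 ± 0.332 TPM. Tet3 then stood at 17.03 TPM in replicate 1 and 15.62 TPM in replicate 2, which is 35.8% and 31.5% of its gene level. Tet1 stood at 3.68 TPM in both replicates and lay below Tet2. It also lay below Dnmt3b, which had 5.66 TPM in replicate 1 and 5.45 TPM in replicate 2. Tet2, whose only counted transcript is complete, stayed at 6.15 and 5.06 TPM. Tet3 kept the largest share of the complete dioxygenase transcripts, at 63.8%, followed by Tet2 at 21.8% and Tet1 at 14.4%. Of the 8 genes, 4 kept their place in the order.

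**Figure D4:**
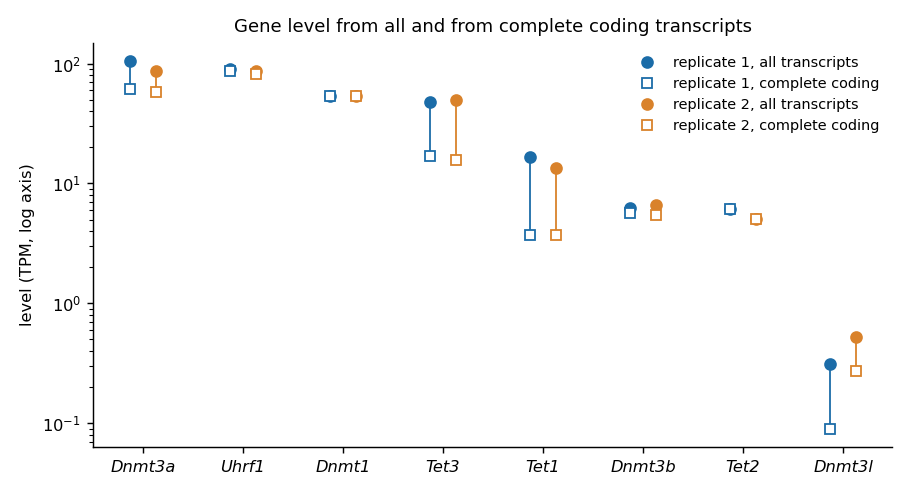
Level in TPM on a log axis from all transcripts (filled circles) and from transcripts with a complete coding sequence (open squares), by replicate. Lines join the values of 1 replicate. The gap is widest for Tet1 and Tet3 among the 7 detected genes, and Tet1 drops below Tet2 and Dnmt3b.

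Neighbours in the order by gene level were not all apart. The ranges of Dnmt3a and Uhrf1 overlapped, and their credibility bounds overlapped in replicate 2 and not in replicate 1. Dnmt1 exceeded Tet3 by 1.11-fold with ranges that did not overlap, but the authors' credibility bounds of the 2 genes overlapped in replicate 2. Dnmt3b exceeded Tet2 by 1.15-fold, again without overlap of the ranges, while the bounds overlapped in replicate 1. Uhrf1 and Dnmt1, Tet3 and Tet1, Tet1 and Dnmt3b, and Tet2 and Dnmt3l differed by both measures, by 1.65-fold, 3.25-fold, 2.33-fold and 13.5-fold.

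Between the replicates the 7 detected genes differed little. None of them passed 1.5-fold in either direction, where 9.08% of the 18318 genes counted at least 10 times in each library did, 4.31% higher in replicate 1 and 4.78% higher in replicate 2. Tet2 differed most, with a log2 ratio of replicate 1 over replicate 2 of 0.28, followed by Dnmt3a at 0.19. The other 5 lay between -0.03 (Dnmt3b) and 0.08 (Tet1), and 6 of the 7 were above 0, a count that was 5 without TMM, where Dnmt1 fell below 0, and 7 with scaling on the spike-ins. The median size of the log2 ratio was 0.07 for these genes and 0.12 for all genes tested. These ratios are from counts scaled by TMM, and for Tet3 the sign differs from that of the TPM, which was lower in replicate 1. The common biological coefficient of variation over all genes was 0.126. Skeletal muscle markers were also higher in replicate 1 for 5 of 6 genes, with a summed level of 1765 TPM against 1338 TPM in replicate 2. Facial mesenchyme markers were higher in replicate 1 for 1 of 10 genes, with a summed level of 563 TPM against 633 TPM in replicate 2. Cartilage and bone markers were higher in replicate 1 for 1 of 7 genes, and 2, both higher in replicate 2, were past 1.5-fold: Col2a1 (log2 ratio -0.75) and Acan (-0.63), named here after their values were seen. The summed level of this list was 4210 TPM in replicate 1 and 4418 TPM in replicate 2. Neural markers were higher in replicate 1 for 0 of 6 genes, with a summed level of 90.2 TPM against 97.8 TPM in replicate 2. Other lists had the higher sum in replicate 1. Epithelial markers were higher there for 4 of 8 genes, with sums of 3020 and 2725 TPM in replicates 1 and 2. For 3 of 5 genes each, erythroid (75.7 and 61.8 TPM) and macrophage markers (194 and 187 TPM) were higher there. The same held for 3 of 4 endothelial genes (102 and 99.45 TPM) and 9 of 14 S phase genes (1510 and 1467 TPM). The part of all these lists in the ratios of the 8 genes was not tested.

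**Figure D5:**
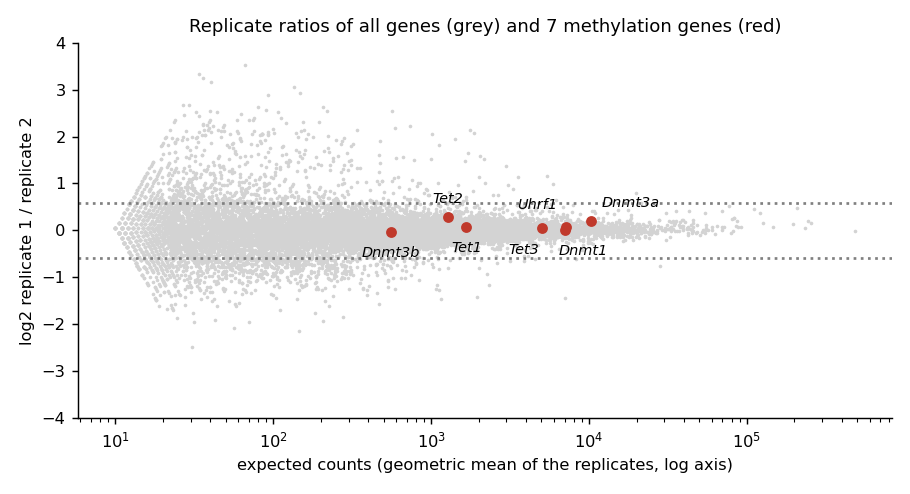
Log2 ratio of replicate 1 over replicate 2 against the expected counts, for 18318 genes counted at least 10 times in each library (grey) and 7 methylation genes (red). Dotted lines mark 1.5-fold. All 7 lie between the lines, Tet2 highest at 0.28 and Dnmt3b lowest at -0.03.

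The genes that work with these enzymes were gathered in 8 pathway lists. Of these 63 genes, 59 reached 1 TPM in both replicates, where 65.4% of all protein coding genes did. The lists were chosen with earlier results known, so these counts and those below describe the lists and test nothing. All 10 genes of proteins that bind methylated CpG reached 1 TPM, with a median of 15.0 TPM. Mbd3, a subunit of the NuRD deacetylase complex whose mammalian form has lost most binding to methylated DNA, was highest at 198 ± 5.0 TPM (mean ± SD, n = 2). Uhrf2, the paralog of Uhrf1, had 50.7 ± 1.22 TPM, and Zfp57, which keeps imprinted regions methylated, 45.6 ± 4.91 TPM. Zbtb33 (Kaiso) was lowest at 2.94 ± 0.240 TPM. Uhrf2 thus stood near the level of Dnmt1, below Uhrf1 in both libraries.

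The partners of maintenance methylation were all detected, 8 of 8, with a median of 54.8 TPM. Pcna, the replication clamp, had 161 ± 9.14 TPM, Pclaf, which binds it, 111 ± 3.64 TPM, and Cdca7, which works with the remodeller Hells, 81.8 ± 1.66 TPM. Hells itself had 28.4 ± 1.70 TPM. Markers of S phase and proliferation were all detected, 14 of 14. Their median level was 99.4 TPM, and the highest was Cdk1, the mitotic kinase, at 285 ± 17.7 TPM. The 4 histone H3 lysine 36 methyltransferases, whose mark is bound by Dnmt3a and Dnmt3b, had a median of 20.7 TPM, with Nsd3 highest at 36.6 ± 0.799 TPM. All 7 other CXXC genes, which bind unmethylated CpG or belong to that family, were detected, led by Cxxc1 at 52.2 ± 1.41 TPM.

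On the side of removal, 11 of 12 base excision repair genes reached 1 TPM. Apex1, the endonuclease that cuts at abasic sites, had 154 ± 4.72 TPM, and Tdg, the glycosylase that removes the oxidised bases made by Tet enzymes, 91.5 ± 1.15 TPM. Ogt, a partner of Tet proteins, had 129 ± 2.49 TPM, and Idh2, which makes their cofactor 2-oxoglutarate in mitochondria, 446 ± 22.2 TPM. Mat2a, which makes the methyl donor, had 208 ± 1.95 TPM, and 10 of 12 genes of the donor cycle were detected. Of the 63 pathway genes, 1 was past 1.5-fold between replicates, where 9.08% of all genes tested were. That share covers genes down to 10 counts in each library and was not matched for level. The pathway gene was Apobec2, a member of the cytidine deaminase family found mainly in muscle. It had 36.4 TPM in replicate 1 and 23.7 TPM in replicate 2 (log2 ratio 0.62). It was higher in the same replicate as the muscle markers, and the part of muscle in its ratio was not tested.

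Genes of the germ line were near the floor. None of 12 genes that DNA methylation is known to keep silent in somatic cells reached 1 TPM in both replicates. Among all protein coding genes 65.4% did. The median of the 12 was 0.0675 TPM. Ddx4, a germ cell RNA helicase, was the highest at 0.530 ± 0.0566 TPM. Of 10 pluripotency and germ cell genes 3 reached 1 TPM, Kit at 16.3 ± 0.438 TPM, Dnd1 at 2.19 ± 0.00707 TPM and Nanos3 at 1.70 ± 0.304 TPM. Kit is also a receptor of pigment and mast cells.

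Of 10 annotated genes that overlap the 8 on either strand, 7 had a value in the tables, each with few reads, and the other 3 were not analysed here. The antisense gene Dnmt3aos had 3 expected counts in replicate 1 and 2 in replicate 2, and Dnmt3bos had 4 in each. B230319C09Rik, opposite Tet3, had 12 and 3. Whether counting used the strand is not given in the sources used here, so reads of overlapping pairs may be shared between them.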

How the data were processed

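Total RNA-seq of mouse embryonic facial prominence was deposited as gene and transcript tables for 2 libraries of 1 group, mapped to the group by their source labels. Per the labels the assembly was mm10, and the deposited text of each sample names annotation M4. Which aligner, counting program and strand setting were used is not given in the sources used here. The deposited tables hold, per the file headers, the authors' expected counts, TPM and FPKM by gene and by transcript, and the percent of a gene's TPM on each transcript (IsoPct). Deposited credibility bounds of TPM are in TPM and were recorded as a score; their level is not stated in the tables. TPM values as deposited sum over genes, 97 spike-in sequences and 26248 numbered sequences. Spike-ins took 6.42% of TPM in replicate 1 and 10.1% in replicate 2.

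Gene names came from GENCODE M21 (GRCm38), where 42462 of 43346 identifiers were found. Of the 59 transcripts described, 56 had the same length in the tables and in M21; the 3 of Dnmt1 did not. Chromosomal positions, exons and coding lengths come from M21, where transcript names also come from. A transcript was called complete with an annotated start and stop codon. Promoter windows for all 8 genes were RefSeq sequences of 250 bases upstream. Detection meant at least 1 TPM in both replicates. Replicate ratios used rounded expected counts, TMM factors of 0.990 and 1.01, a prior count of 2 and a minimum of 10 counts in both libraries, in edgeR 4.0.16 under R 4.3.3, and were tested on simulated data. DESeq2 1.42.0 gave other size factors. Other steps used Python 3.11.15, pandas 2.3.3, numpy 2.4.6 and matplotlib 3.10.9. The libraries differed by more than counting error (chi-square per degree of freedom 13.4), so they are not copies of 1 library; that they are biological replicates rests on the labels.

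The genes, gene lists and alternatives were chosen with earlier results of these data known. Named were all 8 genes, the 3 highest genes of each list, any detected reader, maintenance partner or base excision repair gene, the lowest reader, transcripts with a mean share of 5% or more, and overlapping genes. Transcripts named outside that rule (Dnmt1-203, Uhrf1-202, Dnmt3a-215 and those of Dnmt3l) were chosen after their values were seen. Nothing in the labels separates technical from biological spread beyond the separate pools. Limits from a count of 0 cover counting error only.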

Additional observations from a re-analysis of the deposited data

How the results depend on the processing

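No paired analysis was possible because the samples form 1 group. Gene levels and isoform shares were recomputed without each replicate, and with posterior mean TPM, other TPM totals, lengths ignored, and coding or complete transcripts alone. The last of these was chosen after seeing the data. Of the results that answer a comparison, 50 of the recomputed values stayed within the replicate spread or within 1.5 times a count, and 16 moved. Of the values for single genes or transcripts, 65 stayed and 37 moved. Some gene levels moved by a change of scale alone, with RPKM (another length-corrected unit) or with TPM over mouse genes only. Both settings left all 8 genes at their place in the order. With 2 replicates, a level, ratio or share recomputed without 1 of them always lies within their SD. Those values are counted as stayed by construction and give no sign of stability. Counting complete coding transcripts alone turned round the order of Dnmt3a and Uhrf1 and put Tet1 below both Dnmt3b and Tet2. It also put Dnmt3b below Tet2, by less than the replicate spread. Which complete Dnmt3a form led, and which transcript led for Tet1 and Tet3, also depended on the setting.

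Counting complete coding transcripts alone left 4 of 8 genes at their place, and gave a Dnmt3a to Dnmt3b ratio of 10.7, a Uhrf1 to Dnmt1 ratio of 1.57, and shares of 14.4% for Tet1, 21.8% for Tet2 and 63.8% for Tet3. Expected counts without length gave 18.5 for the first ratio, 1.01 for the second, 16.0% for Tet2 and 63.0% for Tet3. Scaling on the spike-ins put 7 of the 8 genes, each higher in replicate 1, and 12008 of all genes past 1.5-fold, but it moved the median of all genes by 0.648 on the log2 scale, and 0 of the 8 genes passed relative to that shift. Without a count minimum 1 gene of the 8 passed, Dnmt3l, and 6418 of all genes. A looser fold threshold passed 3732 genes, and a threshold of 2-fold 582. Replicate ratios need both libraries and have no value without one of them. The cause of these changes was not tested beyond the settings themselves.

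Depth limits Dnmt3l, with 4 and 9 counts, and the Dnmt3b shares. Shares of transcripts that overlap almost fully depend on the annotation and on the authors' assignment of shared reads.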
